A study of Saccharomyces cerevisiae with 14 samples.

Results

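The genes described here encode the protein subunits of the yeast mitochondrial ribosome, with the 66 members taken by name from the 6598 genes of the deposited table: MRPL, MRPS, MRP or RSM followed only by a number. Of these, 37 encode proteins of the large subunit and 28 proteins of the small subunit. The remaining one, MRP8, was taken by its name alone, and the reference annotation gives it no ribosomal product. Among the subunits, 40 have a bacterial homolog and 25 are specific to mitochondria. RSM22 is annotated in the reference both as a small-subunit protein and as a predicted methyltransferase, and was kept with the small subunit. All 66 members had a value in all 6 conditions, and all passed the filter of at least 1 FPKM in at least 1 condition.

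Mitochondrial ribosomes translate the few messages of the mitochondrial genome, nearly all of which encode core subunits of the respiratory chain and the ATP synthase. Their proteins are encoded in the nucleus, made in the cytosol and imported, and only Var1 is made inside the organelle. In budding yeast the RNA-binding protein Puf3 binds sites downstream of the stop codon in many nuclear messages for mitochondrial biogenesis, and is known to favour their decay on glucose and their translation when cells respire. Rpd3 is a histone deacetylase that acts as a co-repressor in several complexes.

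RNA was sequenced from strain W303 of Saccharomyces cerevisiae, as wild type and with RPD3 deleted (rpd3), in 14 strand-specific, ribosomal-RNA-depleted libraries. Log cells were in growth at OD600 0.4 to 0.6, DS (diauxic shift) cells were taken 2 hours after their glucose was exhausted, and Q (quiescent) cells were isolated on a Percoll gradient from stationary cultures of 7 days. Each condition had 2 isolates with 1 library each, except wild-type log, where both isolates were prepared with 0.2 and with 1 equivalents of ERCC spike-in and gave 4 libraries. Only 1 value per condition stands in the deposited table, and therefore no spread between isolates, no test and no p-value can be given, and the depth behind each value is unknown.

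Levels are FPKM, fragments per kilobase of transcript per unit of sequencing, which the authors scaled by the spike-ins to a per-cell amount of RNA. Changes are given as log2(FPKM + 1) in the first-named condition minus that in the second, and a gene was counted as higher or lower when the change was at least 2-fold. The median gene itself changed by up to -3.87, from log to Q in wild type, so the change of all genes is given beside that of the members. Where it matters, values are also given after the columns had been centred, each on its own median gene. For this, each column was scaled to the median gene of wild-type log cells before the filter and the 1 FPKM were applied. The median gene was at 38.4 FPKM there and at 1.39 in wild-type Q. Centring therefore also lowers the weight of the 1 FPKM on the low values of wild-type Q, and is not a change of scale only. RPD3 was at 70.8, 37.7 and 2.35 FPKM in wild-type log, DS and Q cells, had no value in mutant log cells, and was at 0.941 and 0.0279 in mutant DS and Q cells.

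The motif TGTANATA, the letters Puf3 recognises, was found on the sense strand within 200 bases after the stop codon in 64 of 66 members (97.0%). Among all 6002 protein-coding genes it was found in 844 (14.1%). Cytosolic ribosomal protein genes had it in 4.32%, nuclear genes of oxidative phosphorylation in 14.7% and ribosome biogenesis genes in 9.30%. The members without it were MRP8 and RSM22. The form TGTAAATA was present in 36 members (54.5%) and TGTATATA in 21 (31.8%), against 4.27% and 7.20% of all protein-coding genes. The first motif began between 8 and 139 bases after the stop codon. Windows of 30 bases around this motif are shown for the members that the results turn on, in DNA letters of the S288C reference, build R64, as the sense strand reads, with the motif in capitals. The first 4 were among the members with the largest wild-type decrease in quiescent cells and MRPL49 had the largest in rpd3. MRPL35, MRPL25 and MRPS12 stood out for their DS change or their level, RSM10, MRPL28 and MRPS17 were among the members with the smallest decrease from log to Q in at least 1 genotype, and MRPL38 was lowest in level.
MRPL32 (chrIII:119206-119235, + strand): aaacttaagccTGTATATAgaaacttaatt
MRPL7 (chrIV:937564-937593, + strand): cccattcgtcaTGTAAATAtataaactgta
MRPS35 (chrVII:830212-830241, + strand): ccattattactTGTACATAaaatattctac
MRPL3 (chrXIII:323054-323083, + strand): gtttgccatttTGTAGATAgagaactcctt
MRPL49 (chrX:246977-247006, + strand): ttttagggataTGTACATAtacgcatacgt
MRPL35 (chrIV:1111710-1111739, + strand): ttatagtatccTGTACATAtaaaataacgt
MRPL25 (chrVII:637008-637037, - strand): atgtctaatcaTGTAAATAattttgtgata
MRPS12 (chrXIV:694269-694298, - strand): atacaacctttTGTAAATAgcaatgaccat
RSM10 (chrIV:540462-540491, + strand): gatttcgtactTGTAAATAaaataggtgaa
MRPL28 (chrIV:1386537-1386566, + strand): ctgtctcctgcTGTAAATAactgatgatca
MRPS17 (chrXIII:636217-636246, - strand): gcactacactcTGTAAATAtatacaactac
MRPL38 (chrXI:131135-131164, + strand): aattaaccaccTGTATATAttgcttaaatt
The letters are present in MRPL32 and MRPL7, which had the largest wild-type decrease from log to Q, and in MRPL28, which had the smallest. The members without them, MRP8 and RSM22, changed by -2.51 and -3.59 there (2.22 and 0.46 with centred columns). A match is a description of the letters and not a measured site. The motif was chosen for search after values had been seen.

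Other letters searched were those tied to growth and respiration genes, on both strands of the 300 bases before the start codon. AATTTT was present in 39.4% of members and in 54.1% of all genes, against 97.7% of ribosome biogenesis genes. AAAATTTT, which contains AATTTT, was present in 3.03% of members, 9.42% of all genes and 76.7% of ribosome biogenesis genes. GATGAG gave 18.2%, 19.1% and 90.7% for the same groups. CCAAT, the core letters bound by the Hap complex that activates respiratory genes, was in 36.4% of members and 41.8% of all genes, against 91.2% of nuclear oxidative phosphorylation genes. The stress letters AGGGG were in 12.1% of members and 22.2% of all genes, GGCGGC (tied to Ume6) in 1.52% and 5.20%, and TTACCCG (tied to Reb1) in 15.2% and 7.90%. Thus none of these motifs was shared by most members. Upstream windows are printed for MRPL35, which had the largest mutant DS increase, and MRPL28, the member that decreased least in wild-type quiescent cells. Capitals mark any of the searched motifs on either strand.
MRPL35 (chrIV:1110289-1110588, + strand): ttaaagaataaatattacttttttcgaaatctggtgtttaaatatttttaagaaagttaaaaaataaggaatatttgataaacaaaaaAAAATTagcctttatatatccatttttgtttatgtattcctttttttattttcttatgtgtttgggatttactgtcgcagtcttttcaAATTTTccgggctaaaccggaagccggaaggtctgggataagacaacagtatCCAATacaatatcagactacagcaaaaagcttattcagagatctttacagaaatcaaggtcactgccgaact
MRPL28 (chrIV:1385773-1386072, + strand): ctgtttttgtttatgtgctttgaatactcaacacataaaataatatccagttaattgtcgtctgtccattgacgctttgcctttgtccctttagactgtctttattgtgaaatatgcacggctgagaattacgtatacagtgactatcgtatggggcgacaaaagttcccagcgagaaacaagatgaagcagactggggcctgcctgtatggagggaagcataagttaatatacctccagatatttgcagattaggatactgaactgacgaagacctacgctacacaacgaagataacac
MRPL35 holds AATTTT on both strands and CCAAT, and no searched motif is found in the window of MRPL28. The members lie on 14 of 16 nuclear chromosomes, and only RSM19 and MRPS12 are neighbours of each other; MRPL1 lies beside MRX14, another mitoribosomal gene. MRPL19 overlaps the reading frame YNL184C on the same strand, so its value is uncertain, and MRP4 and MRPL51 overlap frames on the opposite strand.

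In growing wild-type cells the members formed a narrow band of moderately expressed genes. Their median level was 62.6 FPKM, against 38.4 for all genes, and the upper quartile was 1.51 times the lower, against 5.18 times for all genes. The median was 51.1 FPKM in wild-type DS, 2.10 in wild-type Q, 76.6 in rpd3 log, 101 in rpd3 DS and 17.8 in rpd3 Q cells. All-gene medians in the same order were 20.5, 1.39, 50.5, 34.3 and 19.1 FPKM. The members thus stood above the median gene in every condition but rpd3 Q, where they stood slightly below it. Being averages over a culture, these levels cannot tell fewer cells with a transcript from less of it per cell.

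The members that the comparisons below turn on had these levels. MRPL32 (bL32m) was at 58.0, 37.2 and 0.0932 FPKM at the wild-type harvests log, DS and Q, and at 65.3, 74.2 and 15.4 in rpd3. MRPL7 (uL5m) was at 64.6, 41.7 and 0.236 FPKM, and at 68.2, 111 and 20.9. In log cells both were near the median member, and in wild-type Q cells they were among the lowest. MRPL28 (mL40) was at 36.1, 65.2 and 7.44 FPKM in wild type and 62.9, 94.7 and 36.6 in rpd3. MRP8 was at 129, 382 and 21.8 FPKM in wild type and 232, 304 and 116 in rpd3. Both were thus high among the members in wild-type Q, with MRP8 the highest of all. MRPL35 (mL38) was at 55.6, 51.3 and 1.68 FPKM in wild type and 37.7, 91.7 and 10.2 in rpd3. MRPL49 (bL21m) was at 69.7, 59.5 and 0.781 FPKM and at 94.4, 129 and 9.99. In rpd3 both were highest at DS and among the lower members at Q.

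**Figure D1:**
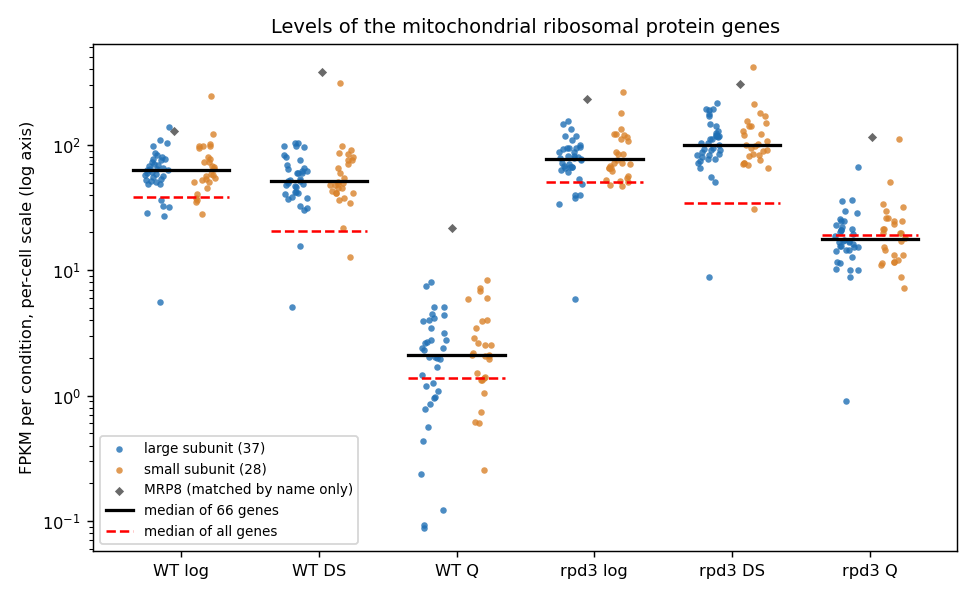
FPKM of each member in the 6 conditions on a log axis, with points for large-subunit and small-subunit genes, diamonds for MRP8, black lines for the members' median and dashed lines for that of all genes. The bulk of the points lie close together in each condition, are lowest in wild-type Q (median 2.10) and are highest in rpd3 DS (median 101).

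MRPS12, encoding the bacterial-type protein uS12m of the decoding centre, was the most abundant subunit message, at 245, 314 and 8.37 FPKM at the log, DS and Q harvests of wild type and 263, 418 and 111 in rpd3. It was the highest subunit in every condition. MRPL38, encoding uL14m, was the lowest member in every condition. Its FPKM was 5.61, 5.11 and 0.0881 in wild type and 5.86, 8.82 and 0.910 in rpd3. The next lowest member in wild-type log cells was MRPL4, at 27.0 FPKM. Levels below 1 FPKM were found for 14 members in quiescent wild-type cells, where 2680 of 6425 of all genes were below it. In quiescent rpd3 cells 1 member was below it, where 135 of 6420 of all genes were. The members were thus not more often below 1 FPKM than all genes in either condition. MRPL33, encoding uL30m, was the second subunit in wild-type log at 139 FPKM, and MRP8 had 129.

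The order of the members by level was kept better between genotypes at log and DS than between wild-type log and Q. Over 66 members the Spearman correlation of levels was 0.83 between wild-type log and rpd3 log, 0.86 between wild-type DS and rpd3 DS, and 0.45 between wild-type log and wild-type Q. It was 0.69 between wild-type Q and rpd3 Q, 0.64 between rpd3 log and rpd3 Q, and 0.68 between wild-type log and wild-type DS. In wild-type Q 14 members were below 1 FPKM at unknown depth, which limits its correlations. These correlations are across genes, which are not independent replicates, and all conditions share the table's normalization. The large-to-small subunit ratio of medians was between 0.866 and 1.09 in the 6 conditions.

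In wild-type DS cells the members stood near their log level on the per-cell scale and above it with centred columns, while cytosolic ribosomal protein genes were far lower on both scales (medians of -4.86 and -3.95). The comparison of DS with log cells gave a median change of -0.28 over the members, against -0.85 over all genes. Of the 66 members 3 were at least 2-fold lower, where 44.2% of all genes were, and 1 was at least 2-fold higher, where 9.91% of all genes were. With centred columns 15 (22.7%) were higher and 0 lower, where 20.1% and 21.9% of all genes were, and the median was 0.63. The member that was higher was MRP8, of unknown function. It went from 129 FPKM to 382 (1.56). The 3 that were lower were MRPL3, encoding mL44, RSM22 and MRPL19, encoding uL11m, each at -1.07. RSM26, encoding mS42, had 102 FPKM in log cells and 51.0 after the shift (-0.98). MRPL28, encoding mL40, was at 36.1 and 65.2 FPKM (0.84), and MRPL25, encoding mL59, at 31.7 and 52.5 FPKM (0.71). MRPL39, encoding bL33m, was at 64.7 and 103 FPKM (0.66). Members above and below their log level were found in both subunits.

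In the rpd3 deletion the same harvest gave more of most members. MRPL35, encoding mL38, was at 37.7 FPKM in rpd3 log and 91.7 in rpd3 DS (1.26), MRPL24, encoding bL28m, at 39.5 and 83.9 (1.07), and MRPL25 at 48.4 and 99.5 (1.02). These 3 were at least 2-fold higher in rpd3 DS, where 7.54% of all genes were, and none was at least 2-fold lower, where 28.6% of all genes were. The median change was 0.41 over the members and -0.52 over all genes. With centred columns 31 members (47%) were at least 2-fold higher and 0 lower, where 14.1% and 13% of all genes were, and the median was 0.97. RSM22 went the other way, from 50.3 to 30.6 FPKM (-0.70). MRPS16, encoding bS16m, went from 121 to 95.1 (-0.34, and 0.22 with centred columns). Of the 66 members, 40 (60.6%) were below their log level in wild type and above it in rpd3, against 10.5% of all genes, counting changes of any size. No member did the reverse, 21 were above log in both and 5 below in both. For these other directions the share of all genes was not counted. With centred columns 62 members were above log in both genotypes and 3 were below in wild type and above in rpd3, so the count of opposite directions depends on the scale. Of all genes 3281 of 6546 were then above log in wild type and 3260 of 6376 in rpd3, and the share for both genotypes together was not counted.

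**Figure D2:**
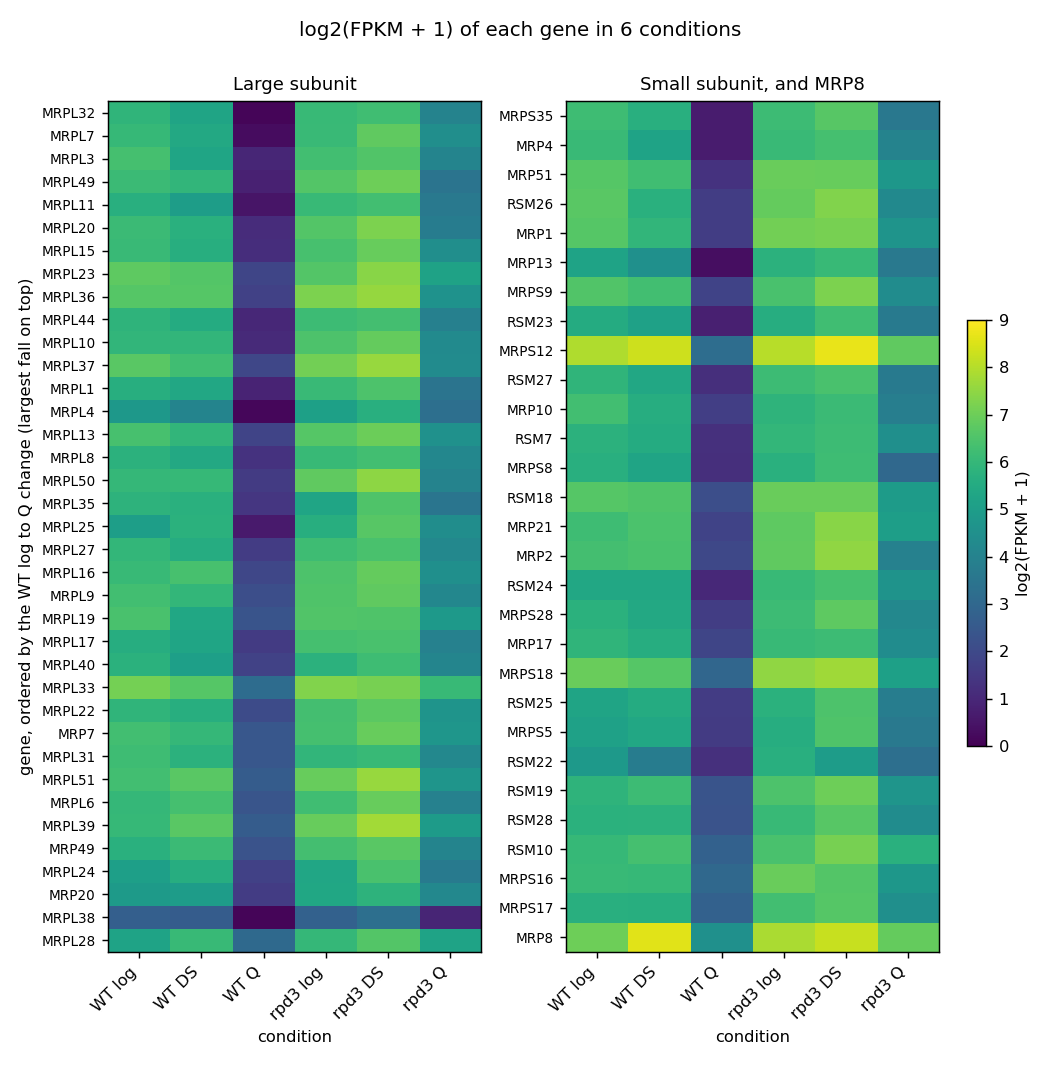
Level of each gene as log2(FPKM + 1), as colour from dark (low) to yellow (high), in the 6 conditions (columns), with large-subunit genes on the left and small-subunit genes and MRP8 on the right, ordered by the wild-type change from log to Q. Wild-type Q is the darkest column in every row, rpd3 DS is the brightest in 58 of 66 (with centred columns 16 and 48 rows), and MRPS12, MRP8 and MRPL38 stand apart in level. Of all genes, 6209 of 6425 were also lower in wild-type Q than in wild-type log. For the rows brightest in rpd3 DS and for the centred counts the share of all genes was not counted.

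In wild-type quiescent cells every member was at least 2-fold lower than in log cells, as was nearly every gene. MRPL32, encoding bL32m, had 58.0 FPKM while growing and 0.0932 when quiescent (-5.75). MRPL7, encoding uL5m, was at 64.6 and 0.236 (-5.73), and MRPS35, encoding mS45, at 73.4 and 0.610 (-5.53). At these levels the pseudocount limits the change that can be read. MRPL28 changed least, from 36.1 to 7.44 FPKM (-2.14), and MRP8, MRPS17, encoding uS17m, and MRPS16 were at -2.51, -2.89 and -3.03. MRPL38 was at -2.60, but with a pseudocount of 0.1 FPKM at -4.92, beside a median of -4.89 for the members. The count of 66 of 66 members stands beside 93.2% of all genes lower and 1.84% higher, so it is close to the background. The median was -4.39 against -3.87 over all genes, and -4.89 against -4.70 with a pseudocount of 0.1 FPKM. With centred columns 8 members (12.1%) were at least 2-fold higher and 14 (21.2%) lower, where 28.9% and 33.2% of all genes were. The centred median was -0.14 over the members and -0.11 over all genes, so the distance between these medians depends on the setting. MRP8, MRPL28, MRPS16 and MRPS17 were then higher, at 2.22, 2.48, 1.59 and 1.69.

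From the diauxic shift to quiescence the wild-type members decreased by more than the median gene. The median was -4.09 over the members and -2.90 over all genes. All 66 were at least 2-fold lower, as were 94.6% of all genes, and none was higher, as 0.171% were. MRPL32 changed by -5.13 and MRPL7 by -5.11. MRPL25 went from 52.5 to 0.562 FPKM (-5.10), MRPL49, encoding bL21m, from 59.5 to 0.781 (-5.09) and MRPS12 from 314 to 8.37 (-5.07). RSM22 changed by -2.53 and MRPS17 by -2.83. MRPL38 was at -2.49, and at -4.79 with a pseudocount of 0.1 FPKM. With centred columns 29 members (43.9%) were lower and 0 higher, where 26.1% and 23.7% of all genes were, with a median of -0.90, while MRPL28, MRPS16, MRPS17 and RSM22 were at 0.74, 0.71, 0.85 and 0.66.

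In quiescent rpd3 cells the members were below their log level too, by less than in wild type on the per-cell scale and, with centred columns, by more (medians of -0.65 and -0.14). Against rpd3 log cells, 63 of 66 members were at least 2-fold lower, where 64.9% of all genes were, none was higher, where 4.36% were, and the median was -2.004 against -1.39 over all genes. MRPL49 was at 94.4 FPKM in rpd3 log and 9.99 in rpd3 Q cells (-3.12), MRP2, encoding uS14m, at 110 and 14.5 (-2.84). RSM10, encoding uS10m, was at 84.0 and 50.9 (-0.71, and 0.67 with centred columns), and MRPL28 at 62.9 and 36.6 (-0.76, and 0.61 with centred columns). With MRP8, at -0.99 (0.40 with centred columns), these were the 3 members under 2-fold. With centred columns 16 members (24.2%) were at least 2-fold lower and 0 higher, where 19.4% and 16.3% of all genes were, so the count lower is close to the background. Above 0 were then 7 members, where 3022 of 6411 of all genes were, MRP20, encoding uL23m, and MRPL25 among the members at 0.20 and 0.14.

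From rpd3 DS to rpd3 Q all 66 members were at least 2-fold lower, where 40.6% of all genes were, none was higher, where 2.68% were, and the median was -2.40 against -0.81. MRPL49 changed by -3.56, MRP2 by -3.54 and MRPL50, encoding bL9m, by -3.44. MRPL33 changed least, from 142 to 66.3 FPKM (-1.09). With centred columns 56 members (84.8%) were lower and 0 higher, where 16% and 8.95% of all genes were, and the median was -1.62. Here the members' count lay further above the all-gene share than in the wild-type comparison.

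Set against wild type at the same harvest, rpd3 cells had more of the members on the per-cell scale, most at Q, while with centred columns the medians were -0.08, 0.22 and -0.73 in log, DS and Q. In log cells the median was 0.32 over the members and 0.25 over all genes, and no member changed 2-fold in either direction, where 10.2% of all genes were higher and 3.38% lower. MRPS16 had 66.1 FPKM in wild type against 121 in rpd3 (0.86) and MRPL35 had 55.6 against 37.7 (-0.55). In DS cells 28 members were at least 2-fold higher and 0 lower, where 31.3% of all genes were higher and 3.61% lower, with a median of 0.96 against 0.64. MRPL4, encoding uL29m, had 15.6 FPKM in wild type against 50.2 in rpd3 (1.62), RSM26 51.0 against 156 (1.59), and MRP13, encoding mS44, 21.8 against 65.9 (1.56). MRP8 was the only member with less in rpd3, 382 against 304 FPKM (-0.33), where 1057 of 6393 of all genes had less. With centred columns 14 of 66 members had less, where 3435 of 6418 of all genes did. With centred columns 0 members were at least 2-fold higher and 1 (MRP8) lower, where 10.7% and 9.6% of all genes were.

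In Q cells 65 of 66 members were at least 2-fold higher in rpd3, where 94.5% of all genes were, and 0 were lower, where 0.343% were, so the count is that of the background. The median was 2.57 over the members and 2.81 over all genes. MRPL7 had 0.236 FPKM in wild type against 20.9 in rpd3 (4.15), MRPL32 0.0932 against 15.4 (3.91), and MRPS12 8.37 against 111 (3.57, and -0.071 with centred columns). MRPL38 had 0.0881 FPKM against 0.910 (0.81) and was under 2-fold with the pseudocount of 1 FPKM; with one of 0.1 FPKM it was at 2.42, and 66 of 66 members were higher. With centred columns the median turned, 5 members (7.58%) being at least 2-fold higher and 23 (34.8%) lower, where 22.1% and 27% of all genes were, and MRPL6, MRPL31, MRPS16 and MRPS17 were then at -1.96, -1.79, -1.93 and -1.92. The comparisons of rpd3 with wild type share no samples with one another, but each shares its columns with the harvest comparisons above.

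**Figure D3:**
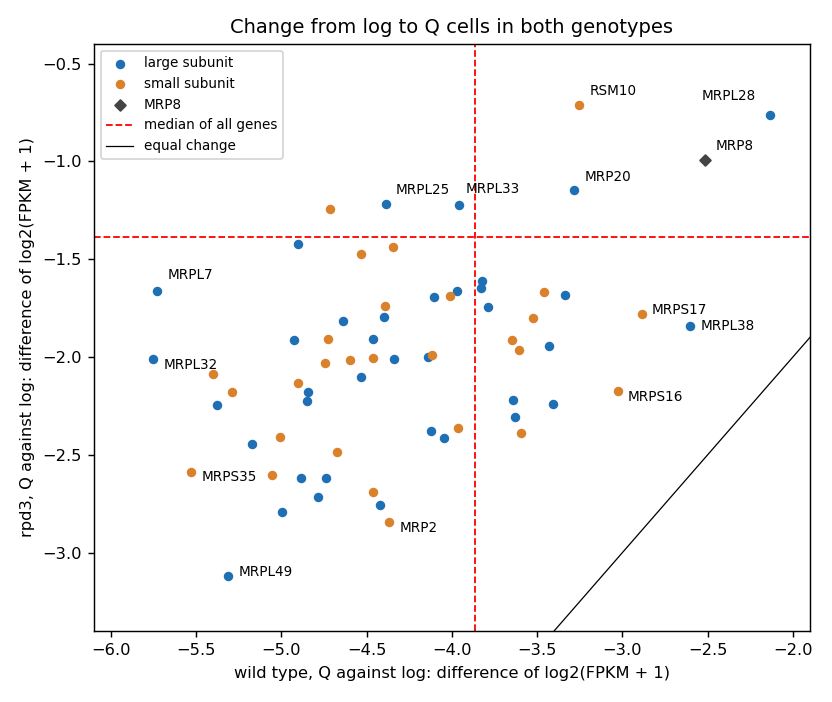
Change from log to Q in wild type (horizontal) against the same change in rpd3 (vertical) for each member, both as differences of log2(FPKM + 1), with the median of all genes as dashed lines. All points lie above the line of equal change, as do 6259 of 6395 of all genes. With centred columns 18 of 66 members and 3321 of 6410 of all genes lie above it. MRPL28 (-2.14 and -0.76) and MRP8 (-2.51 and -0.99) are nearest to 0 in wild type and RSM10 (-0.71) in rpd3. With centred columns these were at 2.48 and 0.61, 2.22 and 0.40, and 0.67.

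The genotypes' changes between harvests differed by a median of 0.59 over the members for log to DS, against 0.40 over all genes. Here 12 members were at least 2-fold higher in the difference and 1 (MRP8) was lower, against 22.6% and 6.04% of all genes. RSM26 had the largest difference, 1.41, with changes of -0.98 in wild type and 0.42 in rpd3. MRPL35 differed by 1.37, MRPL3 by 1.33 and MRPL7 and MRPL4 by 1.32. For log to Q the median difference was 2.28 over the members and 2.52 over all genes. In it 64 of 66 members were at least 2-fold higher, against 91.6% of all genes, and 0 lower, against 0.688%. For DS to Q it was 1.58 over the members and 2.09 over all genes. There 60 of 66 members were higher, against 90% of all genes, and 0 lower, against 0.349%. For log to Q and DS to Q the members' median was thus below that of all genes. With centred columns the members' medians were 0.24, -0.59 and -0.86, against 0.083, 0.064 and -0.11 over all genes. The members' median for log to DS thus kept its sign and the others turned.

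The commonest order of conditions was found in 33 of 66 members. In it the levels ran, from high to low, in the order rpd3 DS, rpd3 log, wild-type log, wild-type DS, rpd3 Q and wild-type Q, and 58 members had their highest level in rpd3 DS. MRP8 had its highest level in wild-type DS, MRP10 and MRPL31 in wild-type log, and MRP51, MRPL19, MRPL33, MRPS16 and RSM22 in rpd3 log. All 66 had their lowest level in wild-type Q. Of all genes, 6209 of 6425 were lower in wild-type Q than in wild-type log, and 6356 of 6420 were lower than in wild-type DS. Against rpd3 Q, 6334 of 6419 genes were lower in wild-type Q, so this lowest place is close to the background. With centred columns 48 were highest in rpd3 DS and 44 lowest in rpd3 Q, with 16 lowest in wild-type Q. For the other counts of orders and places the share of all genes was not counted.

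**Figure D4:**
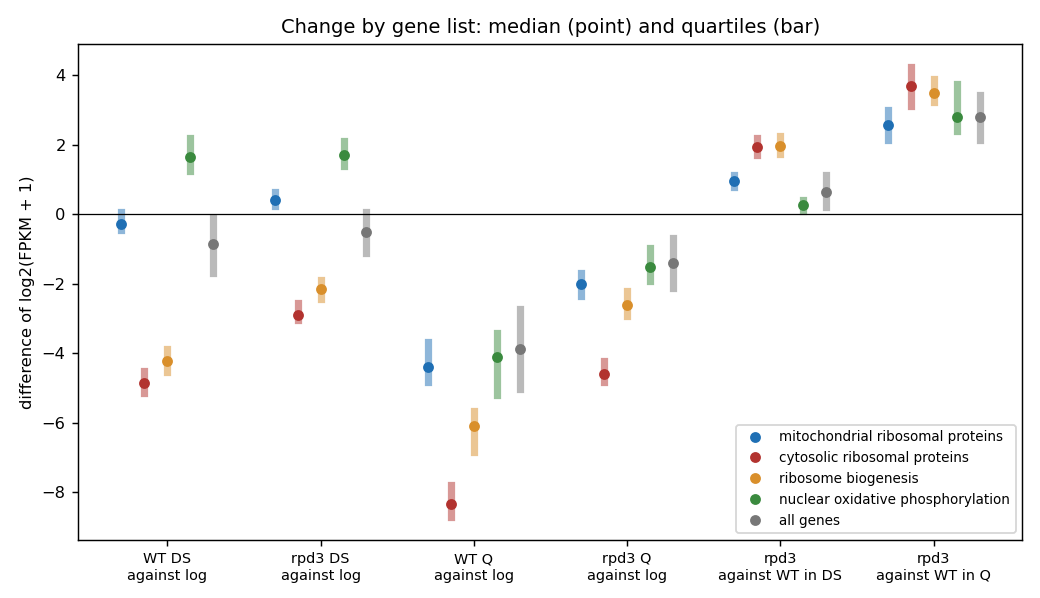
Changes of the members and of related gene groups in the comparisons, as medians with their quartiles over genes, on the log2 scale. Members lie near 0 in wild-type DS (median -0.28), where cytosolic ribosomal protein genes lie at -4.86 and nuclear oxidative phosphorylation genes at 1.66; with centred columns these were 0.63, -3.95 and 2.58.

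Some members have well-known places in the bacterial ribosome. At the stalk that recruits translation factors, MRPL19 (uL11m) was at 85.4, 40.3 and 4.02 FPKM at the log, DS and Q harvests of wild type and at 94.1, 91.1 and 28.4 in rpd3, and MRPL11 (uL10m) at 50.6, 31.4 and 0.434 and at 66.5, 76.6 and 11.4. MRPL19 kept more of its log level in Q cells than MRPL11 did, but its value is uncertain because it overlaps YNL184C on the same strand. At the peptidyl transferase centre, MRP7 (bL27m) was at 76.6, 62.3 and 4.48 FPKM in wild type and 79.9, 119 and 25.5 in rpd3. At the exit of the tunnel, MRP20 (uL23m) was at 28.7, 30.5 and 2.05 FPKM and at 39.7, 55.3 and 17.4, among the lower levels in log cells. In the small subunit, RSM7 (uS7m), which nucleates assembly of the head in bacteria, was at 54.0, 45.1 and 1.38 FPKM and at 61.4, 71.5 and 21.5, and RSM10 (uS10m), also of the head, at 64.6, 79.7 and 5.88 and at 84.0, 142 and 50.9. The message of RSM10 was above that of RSM7 in every condition.

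Large- and small-subunit genes had like medians. In wild-type DS cells the medians were -0.29 for the large and -0.28 for the small subunit, and in rpd3 DS cells 0.42 and 0.40. In wild-type Q cells they were -4.39 and -4.43 and in rpd3 Q cells -2.001 and -2.01. Members with a bacterial homolog had medians of -0.23 and -4.25 in wild-type DS and Q, and those specific to mitochondria -0.42 and -4.53. No test was made of these differences. Length was weakly related to the wild-type changes, with a Spearman correlation over 66 genes of -0.32 for DS and -0.26 for Q, and of 0.03 for both in rpd3.

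Other genes of mitochondrial translation are given by group. The 14 further mitoribosomal proteins with other names, such as IMG1, MNP1, NAM9 and PET123, had medians of -0.13, -4.26, 0.40 and -1.87 for DS and Q against log in wild type and in rpd3, and of 0.78, 0.02, 0.96 and -0.51 with centred columns. All 14 carried TGTANATA after their stop codon. MNP1, encoding bL12m, was the member of that group with the largest wild-type Q decrease, from 179 to 1.29 FPKM (-6.30). VAR1, the subunit message made in mitochondria, was at 8.21, 8.12 and 4.82 FPKM in wild type and 15.2, 22.0 and 10.5 in rpd3, and its wild-type Q change was -0.66 (3.87 with centred columns). Mitochondrial translation factors (9 genes) had a median of 0.03 in wild-type DS and 0.70 in rpd3 DS (0.91 and 1.24 with centred columns). TUF1, the elongation factor Tu of the organelle, was at 343, 339 and 10.1 FPKM in wild type and 443, 747 and 53.7 in rpd3. MEF1, elongation factor G, was at 52.3, 50.1 and 1.34 in wild type and 71.3, 161 and 12.7 in rpd3. Assembly factors (12 genes) had a median of -0.52 in wild-type DS, where MSS116, an RNA helicase, was at -2.37, and translational activators (16 genes) of -0.59, where CBP6, needed for cytochrome b translation, was at 1.14; with centred columns these medians were 0.38 and 0.29. From log to Q in wild type the medians of these groups were -3.60 and -3.98, and 0.77 and -0.41 with centred columns. PUF3 itself had 36.1, 30.9 and 2.90 FPKM in wild type and 32.8, 44.1 and 21.1 in rpd3. HAP4, the regulated subunit of the Hap complex, was at 135, 148 and 2.07 and at 102, 286 and 25.9.

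The 767 other genes with TGTANATA after the stop codon had a wild-type DS median of -0.70, against -0.28 for the 64 members with it, and a rpd3 DS median of -0.32 over 757, against 0.42. Other genes with the letters therefore had lower DS medians than the members with them. Their medians were above those of all genes, which were -0.85 in wild type and -0.52 in rpd3. The 14 other-named mitoribosomal genes are among these other genes, and centred medians were not computed for them as a set.

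A view that does not need the per-cell scale gave the members' place among all genes within each condition. Their median percentile was 64.7 in wild-type log, 75.0 in DS and 60.0 in Q, and 64.2, 80.4 and 46.7 in rpd3. Their share of the FPKM summed over the 6284 genes without a blank was 0.334%, 0.755% and 0.356% in wild type, and 0.401%, 1.03% and 0.494% in rpd3. Cytosolic ribosomal protein genes (135 of them without a blank) took 41.4%, 4.70% and 3.81% in wild type and 38.0%, 11.6% and 8.12% in rpd3. The median cytosolic ribosomal protein gene, over the 135 to 138 with a value in the condition, was 60.5 times the median member in wild-type log cells, 2.39 times in DS and 4.80 times in Q, and 46.5, 4.79 and 8.28 times in rpd3. Nuclear oxidative phosphorylation genes (34 genes) were 3.83, 16.4 and 5.35 times the median member in wild type and 3.58, 9.05 and 5.29 times in rpd3. The messages of both ribosomes thus came closest in wild-type DS cells, and the oxidative phosphorylation genes pulled ahead of the members there.

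**Figure D5:**
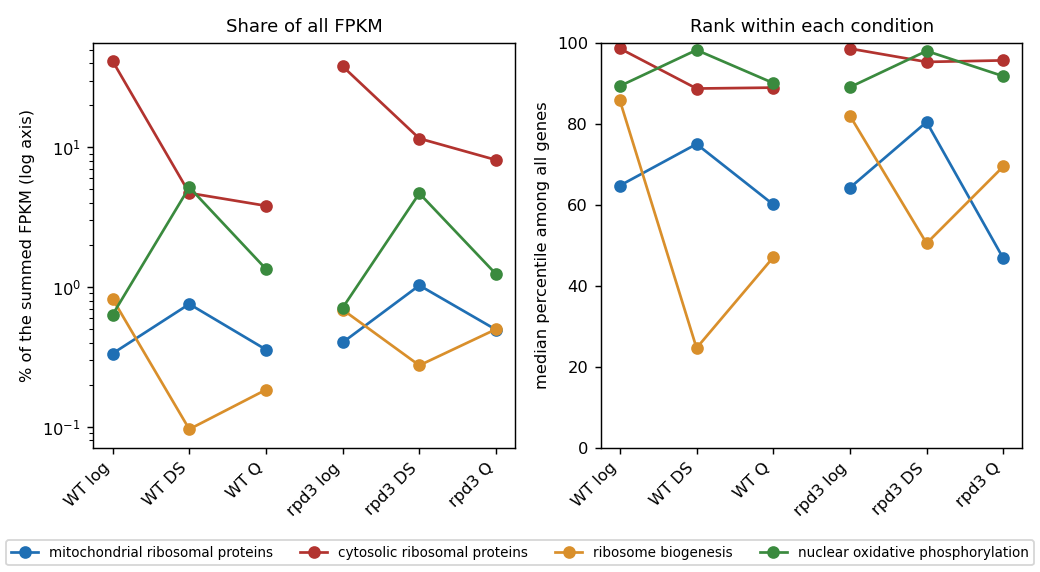
Left, share of the summed FPKM (log axis), and right, median percentile among all genes, for the members and 3 other gene groups in the 6 conditions. The members peak in DS cells of both genotypes, at 0.755% and 1.03% of the sum and at the 75.0 and 80.4 percentiles, and are at the lowest percentile, 46.7, in rpd3 Q.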

How the data were processed

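RNA-seq of wild-type and rpd3 yeast was taken as deposited, as 1 table with 1 log2 value per condition. Per the file headers and the series text, the deposited values are FPKM normalized by the authors with ERCC spike-ins to RNA content per cell; the log base is not given and was read as 2, since FPKM times length then summed to 1268590 in wild-type log cells and to 30897800 with base e. The tools named in the submitters' processing notes are Cufflinks 2.2.1 with Cuffdiff, TopHat2, SAMtools and CASAVA. Their settings, the genome build and the merging of isolates are not stated there.

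The table had 6602 rows; 4 with repeated names were left out, leaving 6598 genes, and 108 mutant DS values that repeat the start of mutant Q were left out, none of a member. A minimum of 1 FPKM in any condition kept 6524 genes, values were turned back to FPKM, and changes were differences of log2(FPKM + 1). There are no replicates in the table, so no test was made. Counts took changes of at least 2-fold. Members and gene lists were chosen with earlier results of these data known. In each comparison the 5 highest and 5 lowest members were candidates for naming, with members against the rest, MRP8, RPD3 and PUF3. YNL122C, annotated as MRP35, was added to the list of other-named subunits after the reference was seen.

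Sequences are of the S288C reference, build R64 (RefSeq), while the strain was W303. No promoter table was at hand, so the 300 bases before the start codon were used; gene ends in this annotation are coding ends for 6002 of 6002 protein-coding genes. All 66 members matched by symbol. Tools were Python 3.11.15, numpy 2.4.6, pandas 2.3.3 and matplotlib 3.10.9, tested on simulated data. Alternatives were pseudocounts of 0.1 and 10, other filters (none, or 10 FPKM), centred columns, blank cells as 0 and other member sets.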

Additional observations from a re-analysis of the deposited data

Results flagged for a closer look

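The median member was lower in DS than in log cells of wild type (-0.28) and higher in rpd3 (0.41), on the log2 scale, so the genotypes moved in opposite directions at the same harvest. There is 1 value per condition, and the difference was not tested. With centred columns both medians were above 0, at 0.63 and 0.97.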

How the results depend on the processing

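The filters (none, or 10 FPKM), blank cells as 0 and members with values in all 6 conditions left every median and count of the members within 1.5 times and in its direction. With columns centred on the median gene, the medians were 0.63 (wild-type DS against log), -0.14 (Q against log) and -0.90 (Q against DS), -0.65 and -1.62 for Q against log and DS in rpd3, and 0.22 for rpd3 against wild type in DS. The medians that turned were wild-type DS against log, rpd3 against wild type in log (-0.078) and in Q (-0.73), and the genotype difference from log to Q (-0.59) and from DS to Q (-0.86). Centred counts of members at least 2-fold higher and lower were 15 and 0, 8 and 14, and 0 and 29 in wild type. In rpd3, 31 were higher for DS against log and 16 lower for Q against log. For rpd3 against wild type in DS and Q they were 0 and 1, and 5 and 23. The all-gene shares for these are given with each comparison above. In the genotype difference from log to DS 2 members (3.03%) were higher and 1 (1.52%) lower, where 14.2% and 10.1% of all genes were. From log to Q 6 members (9.09%) were higher and 20 (30.3%) lower, where 26.7% and 24.4% of all genes were. From DS to Q 4 members (6.06%) were higher and 30 (45.5%) lower, where 19.7% and 21% of all genes were. Above 0 with centred columns were 29 members for wild-type Q against log, 12 for Q against DS and 7 for rpd3 Q against log, and below 0 were 50 for rpd3 against wild type in Q. Among the 5 highest and lowest members of each comparison, those at least 2-fold changed that turned were MRP8 (2.22), MRPL28 (2.48), MRPS16 (1.59) and MRPS17 (1.69) for wild-type Q against log; MRPL28 (0.74), MRPS16 (0.71), MRPS17 (0.85) and RSM22 (0.66) for Q against DS; MRP20 (0.20) and MRPL25 (0.14) for rpd3 Q against log; MRPL31 (-1.79), MRPL6 (-1.96), MRPS12 (-0.071), MRPS16 (-1.93) and MRPS17 (-1.92) for rpd3 against wild type in Q; and MRP49 (-1.96), MRPS17 (-2.11) and RSM22 (-1.53) for the difference from log to Q. With a pseudocount of 0.1 the wild-type Q against DS median was -4.72, against -3.72 over all genes. With a pseudocount of 10 wild-type Q against log and DS gave -2.54 and -2.33 (all genes -1.98 and -1.31), and rpd3 against wild type in Q 1.20 (all genes 1.25). The genotype differences from log to Q and DS to Q gave 0.90 and 0.36 (all genes 0.99 and 0.74), with 29 and 7 members higher. At this pseudocount 0 members were lower in wild-type DS and 1 was higher in rpd3 DS. In rpd3 against wild type in DS 15 were higher, and 5 in the difference from log to DS. The all-gene medians moved as well, and shares of all genes were not counted at this pseudocount, so these counts have no background beside them. Without MRP8, 0 members were higher in wild-type DS and 0 lower in the difference from log to DS. With the 14 other-named genes, 1 was higher in rpd3 log. The cause was not tested, apart from the weight that each pseudocount gives to low values. No paired analysis was possible because the table has 1 column per condition and none per isolate, and leaving out isolates was not run for the same reason. The unknown depth limits values below 1 FPKM most.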
